A study of Mus musculus with 16 samples.

Results

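The response of non-neuronal nuclei of the mouse colon to an agonist of the aryl hydrocarbon receptor (AhR) was measured by comparing 4 libraries from mice given the agonist with 4 libraries from mice given the vehicle. These 8 libraries were chosen by their labels, nonNeuron_AhrAgo and nonNeuron_Ctrl, from 16 libraries in all. The mice were C57BL/6, kept free of specific pathogens, and the mice of all groups had received the vector AAV9-CaMKII-EGFP-KASH intravenously 5 weeks before isolation, so the controls carried it too. The vector puts EGFP on the nuclear envelope under a CaMKII promoter. Mice were injected into the peritoneum with the agonist 3-methylcholanthrene, or with corn oil alone, 14 hours before the nuclei of the muscle layer and its myenteric plexus were isolated. Nuclei were gated on DAPI, and those without EGFP are the non-neuronal population, which is defined by the absence of the label and so holds any nucleus that the vector did not mark. The other 8 libraries are the EGFP-positive (neuronal) nuclei with and without the agonist. Dose, age and sex are not given in the labels, nor is it said whether the libraries of a group came from separate mice, so p-values measure only the spread between these samples, which may be technical.

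AhR is a transcription factor that waits in the cytoplasm with HSP90 and other chaperones. On binding planar aromatic compounds such as 3-methylcholanthrene it enters the nucleus, pairs with ARNT and binds DNA at the xenobiotic response element, whose core is GCGTG. Its best known targets are the CYP1 monooxygenases, which oxidise the ligand itself, and a pair of inhibitors, the repressor AHRR and the ADP-ribosyltransferase TIPARP, which feed back on the receptor.

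Of 14846 genes with enough counts to test, 2 rose and 0 fell under edgeR's quasi-likelihood test at an adjusted p under 0.05, which is 0.0135% and 0% of those tested. The genes that rose were Cyp1a1, the AhR-induced monooxygenase, and Serpina3n, a secreted inhibitor of serine proteases made in the acute phase response. At an unadjusted p under 0.05 there were 450 genes on the higher side (3.03%) and 265 on the lower side (1.78%), and with DESeq2 18 genes were called higher (0.121%) and 17 lower (0.115%). The 4 agonist libraries lay wholly above the 4 controls for 217 genes (1.46%) and wholly below them for 298 genes (2.01%). Levels of genes and summed levels of gene lists are given in TMM-scaled CPM, counts over the library size after scaling by TMM, unless another scale is named. Over all tested genes the median log2 difference, agonist minus corn oil, was 0.13, and 55.7% of the differences were positive. That median was -0.28 with libraries scaled by size alone and -0.20 without the 2 libraries over 30% mitochondrial counts, so the values of a list under those settings are to be read against these medians.

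**Figure D1:**
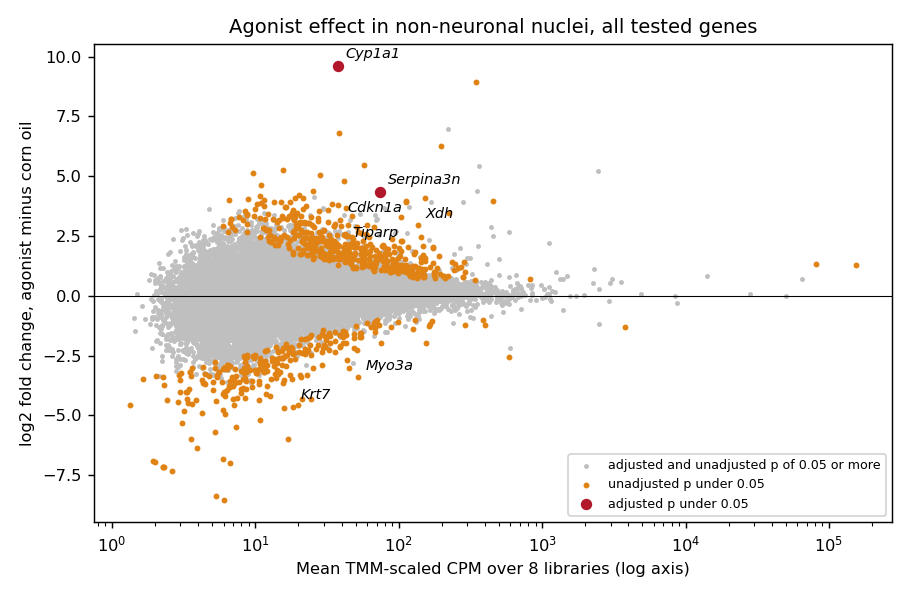
The log2 fold change of each of 14846 tested genes (vertical axis, agonist minus corn oil) is plotted against its mean level in TMM-scaled CPM over 8 libraries (horizontal log axis). The 2 red points are the genes with an adjusted p under 0.05, Cyp1a1 at 9.62 and Serpina3n at 4.35, and orange points have an unadjusted p under 0.05.

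The libraries differed in make-up. Total counts ran from 2663738 to 4902303 per library. Mitochondrially encoded genes took 42.8%, 33.3%, 21.8% and 10.3% of the counts in agonist libraries 1 to 4, and 11.2%, 14.3%, 26.3% and 16.1% in control libraries 1 to 4. The groups overlapped in this share (27.0% ± 14.1 against 17.0% ± 6.56, SD, n = 4 each; two-sided exact permutation p = 0.257, where the smallest p possible is 0.0286). When every library was thinned to 2282966 non-mitochondrial counts, 20299 ± 1618 genes were detected with the agonist and 24922 ± 2293 with corn oil (SD, n = 4 each; exact permutation p = 0.0286, adjusted over 4 tests 0.0571), and the groups did not overlap. Agonist libraries 1 and 2 are the 2 libraries over 30% mitochondrial counts. The summed level of 23 smooth muscle genes was 6333, 9308, 15405 and 9494 CPM in agonist libraries 1 to 4 and 9314, 9290, 7910 and 24285 CPM in control libraries 1 to 4, highest in control library 4. Values without the 2 libraries over 30% mitochondrial counts are given for many of the lists, and the part of library make-up in any gene's difference was not tested.

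**Figure D2:**
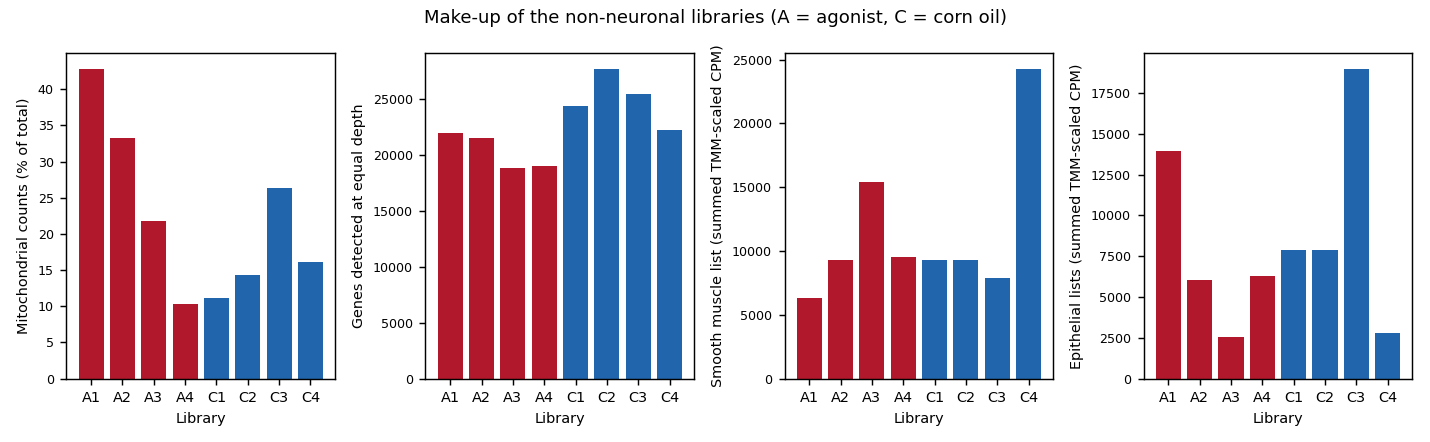
Bars show, for each non-neuronal library (A1 to A4 agonist, C1 to C4 corn oil), the share of mitochondrial counts in percent, the number of genes detected at 2282966 non-mitochondrial counts, and the summed TMM-scaled CPM of the smooth muscle list and of both epithelial lists. The mitochondrial share is highest in A1 (42.8%), fewer genes were detected in every agonist library than in any control, with A1 (21909) and C4 (22179) closest, and smooth muscle genes are highest in C4 (24285 CPM).

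The promoters of 3 genes are shown first: Cyp1a1 and Serpina3n, the genes that rose, and Tiparp, an AhR target that did not pass the adjusted test. The sequences are the 250 bases before the transcription start in RefSeq (GRCm38.p6), all on the plus strand, at chr9:57697363-57697612 for Cyp1a1, chr3:65528197-65528446 for Tiparp and chr12:104406458-104406707 for Serpina3n. Capitals mark GCGTG on either strand (read as CACGC on the other) in the first pair, and ACANNNTGT, a palindrome of the kind bound by steroid receptors, in Serpina3n.
Cyp1a1: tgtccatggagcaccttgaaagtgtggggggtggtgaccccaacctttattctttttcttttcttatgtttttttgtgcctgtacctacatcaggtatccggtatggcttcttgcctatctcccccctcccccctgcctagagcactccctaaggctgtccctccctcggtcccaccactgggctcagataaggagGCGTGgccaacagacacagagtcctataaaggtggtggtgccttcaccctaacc
Tiparp: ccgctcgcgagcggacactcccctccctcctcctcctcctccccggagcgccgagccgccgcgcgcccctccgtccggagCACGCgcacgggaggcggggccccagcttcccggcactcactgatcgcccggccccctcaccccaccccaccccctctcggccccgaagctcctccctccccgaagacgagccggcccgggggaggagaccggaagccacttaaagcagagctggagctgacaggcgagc
Serpina3n: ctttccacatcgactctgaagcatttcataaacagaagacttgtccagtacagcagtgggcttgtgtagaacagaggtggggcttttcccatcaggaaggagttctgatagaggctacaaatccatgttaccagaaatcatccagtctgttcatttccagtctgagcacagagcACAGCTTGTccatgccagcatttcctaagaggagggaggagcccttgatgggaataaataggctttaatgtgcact
In all 6 motifs were searched on both strands, after the results were seen, in windows from 250 bases before to 50 after the start of 32851 promoters. GCGTG was found in 32.4% of all promoters and in those of 8 of the 15 AhR target genes with an entry (53.3%). It was in 11 of 17 glucocorticoid-responsive genes (64.7%), and in 8 of 20 acute phase and 10 of 25 interferon-stimulated genes (40% each). The lists were counted by gene, with any promoter of a gene enough, so their shares are not directly comparable with that of all promoters. The longer TNGCGTG, which contains GCGTG, was found in 5.07% of promoters and in none of these 3. The STAT-type motifs TTCNNNGAA (8.30%) and TTCC followed by GGAA after 2 bases (0.889%) were in none of these 3 either. ACANNNTGT was found in 6.85% of promoters and a longer form that contains it, GNACA followed by TGTNC after 3 bases, in 0.475%. Both matched Serpina3n at the same place, starting 76 and 78 bases before the start, and neither matched Cyp1a1 or Tiparp. These matches describe letters in a window and were not tested as binding sites. Bases further from the start were not searched, so the lack of a match holds for this window only.

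Cyp1a1 (chromosome 9, 57687928 to 57703824, plus strand, GRCm38) rose from almost nothing. Its counts were 31, 19, 623 and 712 in agonist libraries 1 to 4 and 0, 0, 1 and 0 in control libraries 1 to 4, or 10.2, 7.65, 138 and 144 CPM against at most 0.246 CPM. Every agonist library lay above every control, and within the agonist group libraries 3 and 4 were far above libraries 1 and 2, which are those with the high mitochondrial share. The fitted log2 fold change was 9.62 (SE 1.42, edgeR adjusted p = 0.0396), a value that depends on the prior count because the controls hold a single read. The summed counts of 1385 and 1, set against the scaled library sizes, gave a ratio of 1457 with a 95% exact counting interval of 261 to 57579, which covers counting error only. Without the 2 libraries over 30% mitochondrial counts the log2 fold change was 10.54 (adjusted p = 0.000154). The call did not hold with limma voom (8.10, adjusted p = 0.919) or with library sizes only (9.60, adjusted p = 0.0981). Nor did it hold among genes with a mean of at least 50 counts (9.52, adjusted p = 0.0950). The call was lost, with the direction kept, without agonist library 3 (log2 9.10, adjusted p = 0.263) or 4 (9.07, adjusted p = 0.304), and without control library 1 (9.32, adjusted p = 0.443), 2 (9.41, adjusted p = 0.325), 3 (11.17, adjusted p = 0.493) or 4 (9.29, adjusted p = 0.354).

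The other CYP1 enzymes were not tested, since the filter asks for counts in as many libraries as a group holds. Cyp1b1, which oxidises polycyclic compounds outside the liver, had counts of 0, 1, 181 and 296 with the agonist and 0, 2, 10 and 20 with corn oil, so that, as for Cyp1a1, the counts were in agonist libraries 3 and 4 and the groups overlapped. Tested with no filter on low counts, Cyp1b1 differed by 3.72 (SE 1.28, edgeR adjusted p = 0.307), and without the 2 libraries over 30% mitochondrial counts by 4.66 (SE 1.18, adjusted p = 0.400). Cyp1a2, mainly a liver enzyme, had 0 counts with the agonist and 1 with corn oil over 4 libraries each. Aldh3a1, an aldehyde dehydrogenase, had all its 44 counts in agonist library 2.

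Tiparp and Xdh lay higher in every agonist library than in any control without passing the adjusted test. Tiparp was at 64.3, 64.03, 67.7 and 80.8 CPM with the agonist and 9.59, 15.6, 23.2 and 13.5 CPM with corn oil, a log2 difference of 2.16 (SE 0.58, edgeR adjusted p = 0.739; DESeq2 adjusted p = 0.0269). Unlike Cyp1a1, it was nearly level over the 4 agonist libraries. Xdh, xanthine dehydrogenase, was at 659, 98.3, 49.6 and 160 CPM against 18.7, 35.8, 23.9 and 45.3 CPM (log2 difference 2.96, SE 0.68, edgeR adjusted p = 0.593; DESeq2 adjusted p = 0.0152), with agonist library 1 far above the rest.

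The receptor complex itself did not pass the test. Ahr, the receptor, was at 16.7, 27.4, 48.5 and 45.0 CPM with the agonist and 33.0, 18.5, 22.7 and 29.3 CPM with corn oil (log2 difference 0.41, SE 0.65, edgeR adjusted p = 0.989). Arnt, its partner, was at 35.7 to 85.7 CPM against 59.0 to 113 CPM (log2 difference -0.69, SE 0.48, adjusted p = 0.967). Ahrr, the repressor, was at 8.52, 4.03, 11.3 and 0.609 CPM against 16.2, 2.32, 14.3 and 11.1 CPM, and the groups overlapped (log2 difference -0.84, SE 1.15, adjusted p = 0.983). Nqo1, a quinone reductase shared by AhR and NRF2, was at 39.3 CPM in agonist library 1 and at 1.83 to 5.64 CPM in the other 3, against 0.738 to 14.8 CPM (log2 difference 1.05, SE 1.299, adjusted p = 0.983), and its difference was -1.64 without the 2 libraries over 30% mitochondrial counts. In exact permutation tests of these 6 genes (Cyp1a1, Tiparp, Ahr, Arnt, Ahrr and Nqo1) on log2(CPM + 1), Cyp1a1 and Tiparp both gave p = 0.0286, the smallest possible with 4 against 4, and 0.0857 after adjustment over the 6.

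Of 18 genes listed as AhR targets, 12 could be tested, 1 was called, and 9 had a positive difference. The 3 at an unadjusted p under 0.05 were Cyp1a1, Tiparp and Xdh, all on the higher side, and the list's median log2 difference was 0.82 beside 0.13 over all genes. That median rested partly on agonist library 1: without it the median was 0.25 and 7 of 13 were positive, and without the 2 libraries over 30% mitochondrial counts it was 0.46 with 9 of 13 positive and 4 at an unadjusted p under 0.05. It was 0.32 with the mitochondrial share as covariate. Without agonist library 2, 12 of 13 were positive and 6 were at that level. With no filter on low counts 17 were tested and 5 were at that level. Of the 6 that were not tested, Gsta1, a glutathione transferase, had 869 counts summed over the agonist libraries and 16 with corn oil. Il22 had 0 and 7. As they failed the filter, fewer libraries than a group holds reached its level. Tested with no filter, Gsta1 differed by 5.98 (SE 3.33, edgeR adjusted p = 0.441) and Il22 by -4.17 (SE 2.24, adjusted p = 0.400). Of 16 genes of the receptor's own machinery, all tested, 0 were called and 12 were positive with a median of 0.21, and without the 2 libraries over 30% mitochondrial counts 6 were positive with a median of -0.32.

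**Figure D3:**
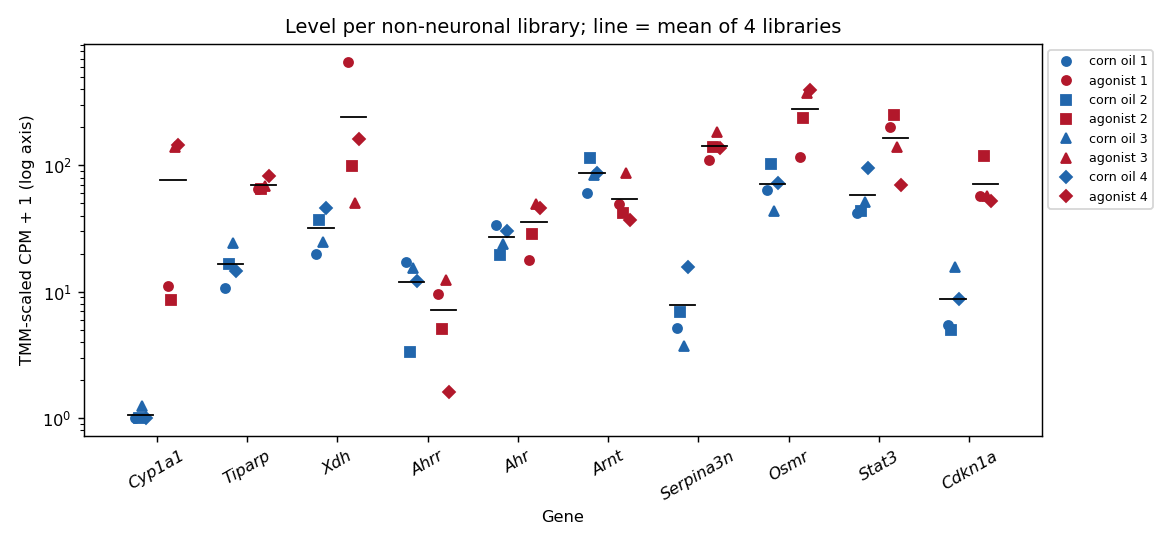
Points give the level of 10 genes in each non-neuronal library, as TMM-scaled CPM + 1 on a log axis, blue for corn oil and red for agonist, with a marker shape for each library number and a black line at the mean of 4 libraries. Cyp1a1 and Serpina3n are the 2 genes that passed the adjusted test, and the agonist points of Tiparp lie close together at 64.03 to 80.8 CPM, above all controls.

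Serpina3n (chromosome 12, 104406729 to 104414329, plus strand) rose in every agonist library by a similar amount. It was at 109, 140, 184 and 136 CPM with the agonist and at 4.18, 5.96, 2.71 and 14.8 CPM with corn oil, a log2 fold change of 4.35 (SE 0.62, edgeR adjusted p = 0.0396). The lowest agonist library was well above the highest control, and agonist libraries 1 and 2 did not stand apart. Without the 2 libraries over 30% mitochondrial counts the value was 4.49 (adjusted p = 0.0635). The call did not hold with limma voom (4.59, adjusted p = 0.311) or with library sizes only (3.94, adjusted p = 0.229). Nor did it hold among genes with a mean of at least 50 counts (4.29, adjusted p = 0.0796) or with all 16 libraries in 1 fit (4.31, adjusted p = 0.0965). The call was also lost, at log2 fold changes of 4.09 to 4.38, without agonist library 2 (adjusted p = 0.0863), 3 (0.263) or 4 (0.199), or control library 1 (0.443), 2 (0.325) or 3 (0.259). Serpina3n belongs to a cluster of near-identical serpin genes, so reads shared between them make its level less certain.

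Other genes of the acute phase, the set that cytokines of the IL-6 family switch on through STAT3, lay on the same side without being called. The list of 24 genes includes Serpina3n, so every count, median and sum given for it does too. Of these genes 14 were tested, 1 was called (Serpina3n), 12 were positive and 6 were at an unadjusted p under 0.05, all higher. The median log2 difference was 1.19. Without the 2 libraries over 30% mitochondrial counts 18 were tested, 16 were positive and 6 were at an unadjusted p under 0.05, with a median of 1.26. The count of 6 was 3 without agonist library 4 or control library 1. The summed level of the list was 633 to 1421 CPM with the agonist and 365 to 521 CPM with corn oil. Serpina3n is part of these sums, at a mean of 142 CPM with the agonist and 6.90 CPM with corn oil. The nearest sums were those of agonist library 1 (633 CPM) and control library 4 (521 CPM), and separation without Serpina3n was not tested. The groups overlapped per library total alone, at 394 to 1664 against 353 to 620 CPM of the total. Osmr, the receptor for oncostatin M, was at 116, 236, 373 and 394 CPM with the agonist and 63.2, 102, 42.4 and 71.8 CPM with corn oil (log2 difference 2.002, SE 0.44, adjusted p = 0.593). Stat3, the transcription factor, was at 201, 248, 138 and 69.0 CPM against 40.8, 42.7, 49.8 and 93.7 CPM (log2 difference 1.53, SE 0.48, adjusted p = 0.954). Osmr did not overlap between the groups, whereas agonist library 4 was below control library 4 for Stat3. Lrg1, a secreted leucine-rich glycoprotein, was at 3.28, 28.6, 27.0 and 54.4 CPM against 4.92, 2.32, 2.46 and 10.6 CPM. Lcn2, an iron-chelator binding protein, was at 32.1, 41.9, 23.7 and 74.7 CPM against 3.94, 2.98, 0.246 and 27.6 CPM. Cebpd, a transcription factor of the acute phase, was at 16.7, 96.2, 32.8 and 170 CPM against 0.738, 0, 9.61 and 30.4 CPM. In each of these 3 genes at least 1 agonist library overlapped the controls. The macrophage list, which could carry inflammatory transcripts, summed to 349 to 746 CPM with the agonist and 237 to 384 CPM with corn oil, so the groups overlapped. Per library total alone it was at 301 to 521 against 282 to 472 CPM of the total. The part of macrophages in the acute phase values was not tested. Of 15 neutrophil and monocyte markers only 3 had enough counts to test.

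Among genes that glucocorticoids induce, all 17 tested of 19 had a positive difference and none was called. The median was 2.14, the highest of the lists examined, and 8 were at an unadjusted p under 0.05 on the higher side. The median was 1.13 and that count 4 without the 2 libraries over 30% mitochondrial counts (16 of 18 positive), and the count was 2 when libraries were scaled by size alone (15 of 17 positive). The count was also 4 without control library 1 or 4, and 5 without agonist library 4 or control library 2. Cdkn1a, a cyclin-dependent kinase inhibitor also induced by p53, was at 55.7, 118, 56.5 and 51.1 CPM with the agonist and 4.43, 3.97, 14.5 and 7.81 CPM with corn oil, with no overlap (log2 difference 3.18, SE 0.69, edgeR adjusted p = 0.593; DESeq2 adjusted p = 0.00143). Zbtb16, a zinc finger repressor, was at 33.4, 43.9, 41.6 and 27.6 CPM against 13.3, 5.30, 3.20 and 10.4 CPM, also with no overlap (log2 difference 2.18, SE 0.79, adjusted p = 0.954). Fkbp5, a chaperone that dampens glucocorticoid receptor signalling, was at 29.5, 16.9, 26.8 and 43.4 CPM against 3.20, 1.66, 17.7 and 0.217 CPM. Angptl4, an inhibitor of lipoprotein lipase, was at 46.6, 62.4, 21.0 and 3.45 CPM against 1.32 to 4.43 CPM, and Sgk1, a kinase, was at 308 CPM in agonist library 1 but at 10.9 to 27.9 CPM in the other 3, within the control range of 8.36 to 42.6 CPM. Lcn2 stands on this list and on the acute phase list.

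Interferon-stimulated genes, the antiviral set that interferons switch on, were positive for 26 of 29 tested (of 34), with a median of 1.11, none called and 8 at an unadjusted p under 0.05, all higher. Without the 2 libraries over 30% mitochondrial counts 27 of 32 were positive and again 8 were at an unadjusted p under 0.05 (median 1.12), and scaling by library size alone left 23 of 29 positive and 3 at that level. The count was also 3 without agonist library 3, 4 without control library 1 or 4, and 5 without agonist library 4 or control library 2, with at least 24 members positive in each case. The summed level was 1152 to 1682 CPM with the agonist and 627 to 859 CPM with corn oil, but the groups overlapped per library total alone, at 804 to 1606 against 648 to 1109 CPM of the total. Dtx3l, an E3 ubiquitin ligase, was at 69.8, 34.6, 137 and 73.0 CPM with the agonist and 21.4, 26.2, 12.6 and 16.1 CPM with corn oil, with no overlap (log2 difference 2.04, SE 0.60, adjusted p = 0.953). Gbp7, a guanylate-binding protein, was at 64.3, 41.1, 89.2 and 70.8 CPM against 14.3, 25.8, 35.5 and 30.2 CPM, also with no overlap. Oasl2 was at 226, 19.7, 125 and 131 CPM against 24.3 to 34.8 CPM, so agonist library 2 lay below all controls. Ifit1 was at 36.4, 1.21, 50.9 and 37.7 CPM against 1.23 to 8.28 CPM, with agonist library 2 again low. The most abundant tested members, Ifih1 and Parp14, differed by 0.08 (SE 0.57) and 0.77 (SE 0.39). Of 27 inflammatory mediators 12 were tested, 9 were positive and 0 were at an unadjusted p under 0.05.

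**Figure D4:**
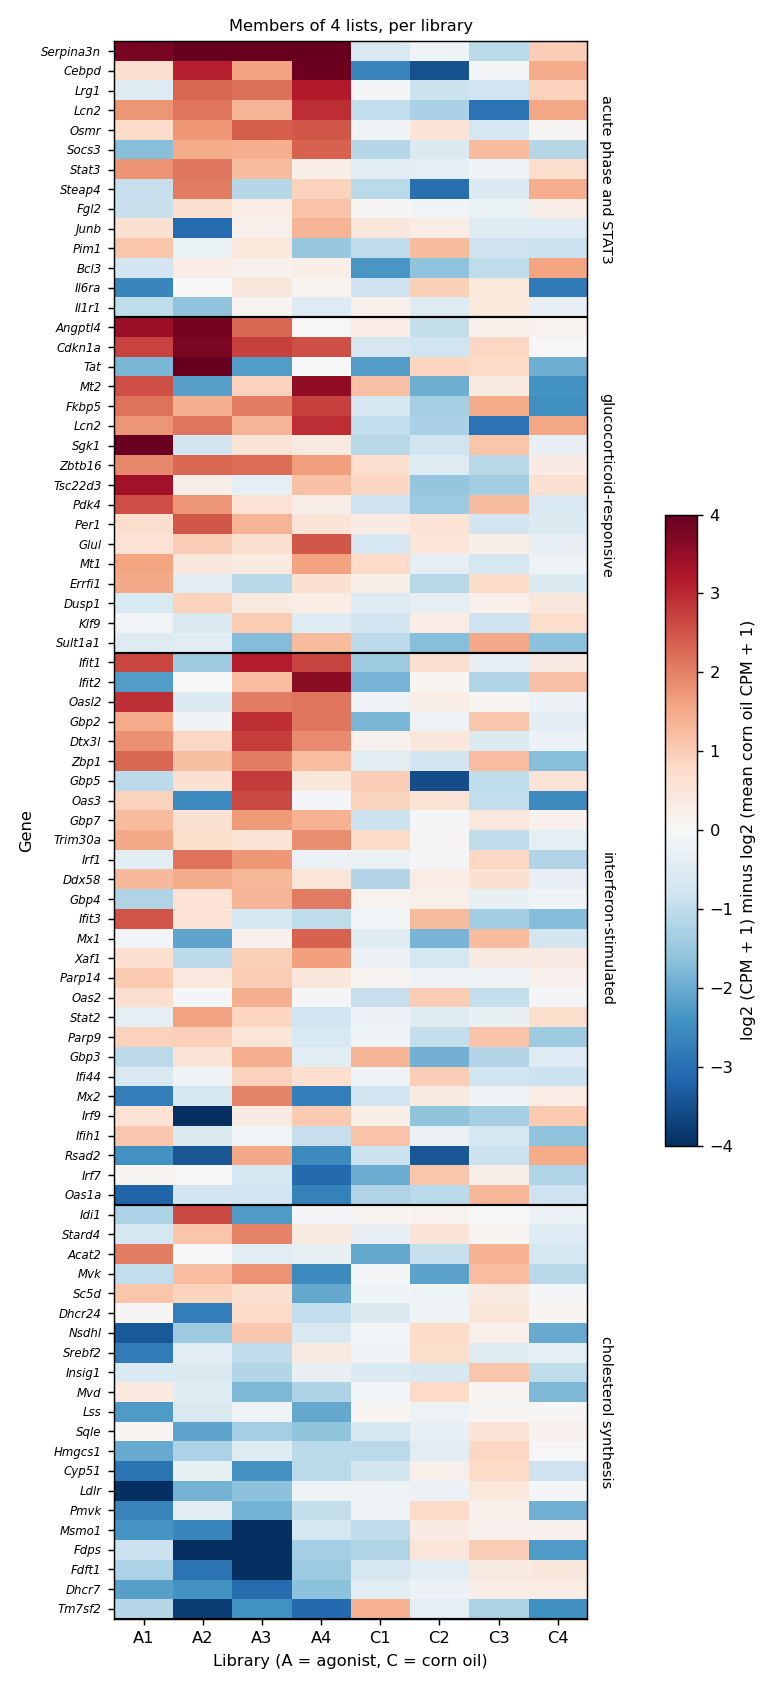
Each row is a gene of the acute phase, glucocorticoid, interferon or cholesterol list and each column a library (A1 to A4 agonist, C1 to C4 corn oil); colour gives log2(CPM + 1) minus the log2 of the mean corn oil CPM + 1, cut off at 4 either way. Red prevails in the agonist columns of the first 3 lists (12 of 14, 17 of 17 and 26 of 29 tested members positive) and blue in the cholesterol list (5 of 22); a few members are not drawn.

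Genes of cholesterol synthesis lay on the lower side: 5 of 22 tested (of 24) were positive, with a median of -0.88, none called and 3 at an unadjusted p under 0.05, all lower. Their summed level was 366 to 623 CPM with the agonist and 626 to 1070 CPM with corn oil, so the nearest libraries were almost level. Without the 2 libraries over 30% mitochondrial counts the median was -0.85. The count of 3 was 5 without agonist library 1 or 4, 6 without agonist library 3 and 1 without control library 4. Dhcr7, which makes cholesterol from its last precursor, was at 2.95, 2.42, 1.11 and 4.67 CPM with the agonist and 12.1, 14.2, 20.2 and 20.6 CPM with corn oil, with no overlap (log2 difference -2.57, SE 1.04, adjusted p = 0.954). Fdft1, squalene synthase, was at 25.6, 7.25, 2.88 and 22.3 CPM against 38.9, 46.0, 80.8 and 86.8 CPM, again with no overlap. Msmo1, a sterol oxidase, was at 8.85, 7.25, 0.443 and 30.03 CPM against 23.9 to 61.9 CPM. Stard4, a cholesterol carrier, differed by 1.01 (SE 0.54, adjusted p = 0.954).

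Other metabolic lists had positive medians, and agonist library 1 had the highest summed level in each of them. Of 30 phase II conjugation genes 23 were tested, 20 were positive and 2 were at an unadjusted p under 0.05 (median 1.18, and 0.35 without the 2 libraries over 30% mitochondrial counts), and their sum was 3260 CPM in agonist library 1 against 436 to 940 CPM in the other 3. Without agonist library 1 alone the median was 0.30, with 0 members on the higher side and 2 on the lower side at that level. Ugt2b34, a glucuronosyltransferase, was at 1304, 87.4, 28.6 and 283 CPM against 38.8 to 168 CPM. For cytochrome P450 families 2 to 4 the median was 0.58, and it was -1.24 without those 2 libraries. Cyp3a13 was at 688 CPM in agonist library 1, and Cyp2c55 at 569 CPM in control library 3. NRF2 targets were positive for 13 of 19 (median 0.60, and 0.030 without agonist library 1 or 0.29 without those 2 libraries); Fth1, ferritin heavy chain, was at 1314 CPM in agonist library 1 and 55.2 to 146 CPM in the other 3. Of the genes of PPAR signalling and fatty acid oxidation 17 of 21 were positive (median 0.67, 4 at an unadjusted p under 0.05, all higher). Without those 2 libraries 14 of 24 were positive (median 0.36), with 1 on the higher side and 3 on the lower side at that level.

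Cell cycle genes were positive for 7 of 30 tested (median -0.73), with 4 at an unadjusted p under 0.05 on the lower side and 1 on the higher side. The median was -0.39 without control library 2 (11 of 31 positive) and -1.67 without agonist library 4, and the count of 4 was 1 without agonist library 1 or 2 or control library 2. Mki67, a marker of dividing cells, was at 130, 305, 63.8 and 449 CPM with the agonist and 538, 845, 684 and 159 CPM with corn oil, and Top2a at 17.4, 83.4, 0.221 and 121 CPM against 19.1 to 193 CPM, so both overlapped. Bub1, a spindle checkpoint kinase, was at 0.805 to 5.57 CPM against 6.07 to 56.9 CPM, with no overlap (log2 difference -3.11, SE 1.05, adjusted p = 0.954). Ccnb2, a mitotic cyclin, was the exception on the higher side, at 50.2, 29.0, 0 and 8.12 CPM against 0.434 to 2.71 CPM. In the same libraries the summed goblet cell markers were at 8228, 3296, 1217 and 4554 CPM with the agonist and 6384, 6274, 15527 and 1971 CPM with corn oil, and their part in the cell cycle values was not tested. Of p53 targets 13 of 16 were positive (median 0.62) with Cdkn1a alone at an unadjusted p under 0.05. Immediate early (median 0.33), heat shock (0.21), unfolded protein response (0.10) and circadian clock genes (0.048) had medians near that of all genes. The median of heat shock genes was -0.28 without the 2 libraries over 30% mitochondrial counts, and those of the other 3 lists were -0.12, -0.13 and -0.18 without agonist library 3.

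Markers of the cell types that an EGFP-negative gate can hold were detected for smooth muscle and for epithelium, and the summed goblet cell markers exceeded the summed smooth muscle genes in agonist library 1 and control library 3. Myh11, smooth muscle myosin, was at 1968 to 3617 CPM with the agonist and 2199 to 5742 CPM with corn oil (log2 difference -0.23, SE 0.34), and 6 of 23 smooth muscle genes were positive, or 13 of 23 without the 2 libraries over 30% mitochondrial counts. The direction of this list rested on control library 4: without it 21 of 23 were positive, with a median of 0.24 in place of -0.23. Muc2, the goblet cell mucin, was at 3076, 2276, 761 and 2704 CPM against 4765, 4209, 11334 and 1221 CPM, although the tissue was a muscle layer. Goblet cell markers split, with 2 of 14 at an unadjusted p under 0.05 on the higher side (Fcgbp, Zg16) and 4 on the lower side (Muc2, Muc4, Agr2, Spdef). The higher side held 0 without agonist library 1, without those 2 libraries, with limma voom and with the replicate block, and 5 without agonist library 3. The lower side held 1 without agonist library 3 or control library 3, and 2 without those 2 libraries. Absorptive and crypt cell markers had a median of 0.44, which was -0.50 without those 2 libraries and -0.66 without agonist library 1. Skeletal muscle genes, which do not belong to the colon wall, were negative for all 5 tested (median -2.16). Their summed level was 239, 137, 58.0 and 730 CPM in agonist libraries 1 to 4. It was 3141 CPM in control library 3 and 280 to 768 CPM in the other controls, so the groups overlapped. Without control library 3 the median was -0.93 and 1 gene in place of 2 was at an unadjusted p under 0.05. Myh2, a fast myosin, had 0 counts with the agonist and 164 with corn oil, at least 52.0-fold lower against a floor of 3 counts over the group. Pan-neuronal genes were detected in this population too, with 24 of 30 tested, 4 positive and 1 at an unadjusted p under 0.05 (median -0.29). Without control library 4, 12 of 24 were positive (median 0.021), and without the 2 libraries over 30% mitochondrial counts 13 of 28. Fewer cells of a type and less RNA per cell cannot be told apart in such bulk libraries.

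The remaining cell type lists gave no called gene. Interstitial cells of Cajal (median 0.28), fibroblasts and PDGFRA cells (-0.31), enteric glia (-0.13), pericytes (0.12), blood endothelium (0.40) and macrophages (0.56) each had between 0 and 2 members at an unadjusted p under 0.05. Kit, a receptor tyrosine kinase of the pacemaker cells, was at 47.5 to 113 CPM with the agonist and 82.5 to 157 CPM with corn oil. Lymphatic endothelium had a median of 0.77 with Reln, a secreted glycoprotein, at 168, 581, 365 and 533 CPM against 166, 85.8, 111 and 255 CPM (log2 difference 1.41, SE 0.43, adjusted p = 0.954). Pdgfra was at 136, 99.5, 347 and 186 CPM against 105, 90.4, 24.1 and 124 CPM. It is not typical of its list, where 6 of 17 tested members were positive. That list had 1 member on the higher and 1 on the lower side at an unadjusted p under 0.05. Collagen and matrix genes had a median of -0.34 with 10 of 33 positive, but 0.18 with 18 of 33 positive without control library 4, and -0.033 without the 2 libraries over 30% mitochondrial counts. The median of fibroblast and PDGFRA cell genes was likewise 0.20 without control library 4, that of mesothelium -0.32 without agonist library 4, and that of lymphocytes 0.73 without control library 3. With all libraries the medians were 0.53 for mesothelium, -0.55 for adipocytes, -0.087 for lymphocytes, 0.51 for enteroendocrine and tuft cells, and 0.42 for neutrophils and monocytes. Interstitial cells of Cajal, enteric glia, pericytes and enteroendocrine and tuft cells also changed the sign of their median with 1 library left out. Ribosomal protein genes had a median of 0.38 and abundant nuclear RNAs one of -0.37, with Malat1 at 0.08 (SE 0.31). None of 11 mast cell and eosinophil markers had enough counts to test.

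**Figure D5:**
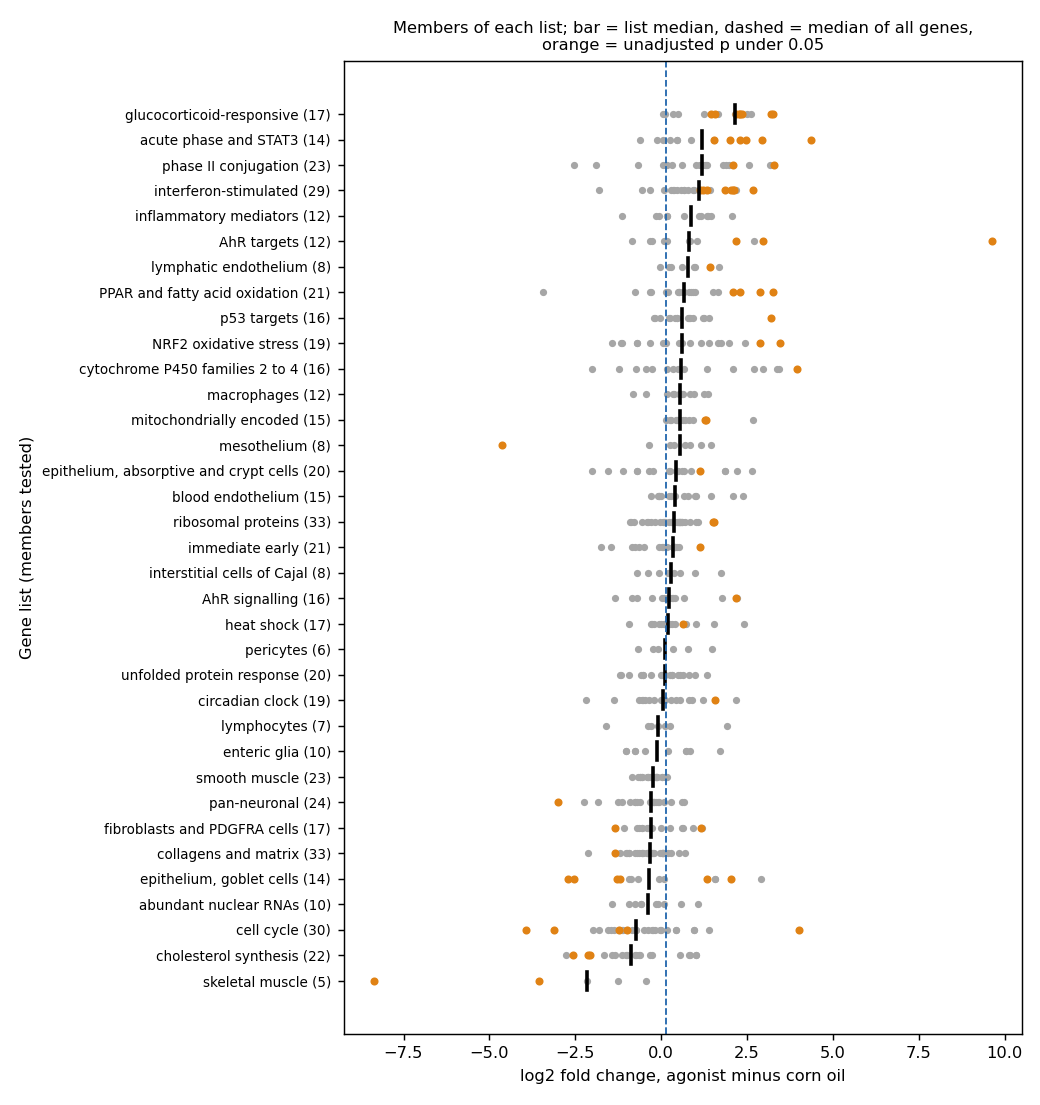
Each point is the log2 fold change (agonist minus corn oil) of a tested member of a gene list, orange where the unadjusted p is under 0.05; the black bar is the list's median, the dashed line the median of all genes (0.13), and the number of members tested follows each list's name. The glucocorticoid list has the highest median (2.14) and the skeletal muscle list the lowest (-2.16).

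The genes called as following the mitochondrial share were mitochondrial genes and related pseudogenes. The share is made of the counts of the mitochondrial genes, so that these genes follow it was fixed in advance. With so few libraries, the lack of other calls does not show that other genes did not follow it. In a model with group and the log2 odds of the share, 8 genes followed the share at an adjusted p under 0.05 (0.0539% of those tested): mt-Rnr1, mt-Rnr2, mt-Nd1, mt-Co1, mt-Atp6, mt-Cytb and the pseudogenes Gm10925 and Gm29216. Without the mitochondrial genes 1 was left, Gm29216. With the share in the model Cyp1a1 differed by 10.01 (SE 1.32, adjusted p = 0.0231) and Serpina3n by 4.50 (SE 0.66, adjusted p = 0.0413), and 2 genes were called higher as before. All 15 mitochondrially encoded genes were positive (median 0.55), but 2 of 15 without the 2 libraries over 30% mitochondrial counts (median -0.85). Without those 2 libraries 592 genes were at an unadjusted p under 0.05 on the higher side (3.07% of 19254 tested). On the lower side there were 1524 (7.92%). That fit tested more genes than the 14846 of the main fit, because the filter follows the size of the smaller group. Whether the larger share on the lower side came from the libraries left out or from the added genes was not tested.

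Beyond the lists, the genes with the smallest p whose groups did not overlap included, on the higher side, March6, a ubiquitin ligase of the endoplasmic reticulum, at 279, 143, 151 and 181 CPM with the agonist and 74.0, 27.8, 34.0 and 45.8 CPM with corn oil (log2 difference 2.05, SE 0.44, adjusted p = 0.593). On the lower side Myo3a, an unconventional myosin, was at 10.2, 5.64, 12.8 and 7.51 CPM against 84.6, 58.6, 220 and 17.1 CPM (log2 difference -3.38, SE 0.74, adjusted p = 0.593). Ggcx, the vitamin K-dependent carboxylase, was at 2.88 to 5.28 CPM against 25.4 to 55.5 CPM (-3.33, SE 0.82, adjusted p = 0.705). Krt7, a simple-epithelium keratin, was at 0.805 to 1.83 CPM against 3.47 to 109 CPM (-4.63, SE 1.17). Lin28b, an RNA-binding protein, was at 1.42 to 3.61 CPM against 6.41 to 44.4 CPM (-3.54, SE 0.98). Ccn2, a matrix-associated growth factor, was at 2.62 to 21.9 CPM against 43.4 to 131 CPM (-2.70, SE 0.74), and the olfactory receptor Olfr607 at 0 to 1.61 CPM against 15.3 to 54.9 CPM (-6.00, SE 1.26). All of these were called by DESeq2 and none by edgeR. Olfr607 is 1 of 1922 olfactory and vomeronasal receptor genes, of which 339 to 1073 were detected in each non-neuronal library. As a class they were at 4038 ± 2577 CPM of non-mitochondrial counts with the agonist and 4672 ± 1968 with corn oil (SD, n = 4 each). The groups of the class did not differ by the exact permutation test (p = 0.686, adjusted over 4 tests 0.686). Some further genes were singled out after their values were seen, and edgeR called none of them. Il13ra1, a receptor chain for IL-13, was at 67.2 to 95.4 CPM against 9.35 to 19.5 CPM (2.44, SE 0.56, edgeR adjusted p = 0.593). F13a1, a coagulation factor chain found in macrophages, was at 26.4 to 97.0 CPM against 5.67 to 13.3 CPM (2.90, SE 0.69, adjusted p = 0.593). C3, the complement component, was at 58.4 to 389 CPM against 13.3 to 47.1 CPM (2.37, SE 0.65, adjusted p = 0.739). Sbno2, a STAT3-induced corepressor, was at 50.5 to 195 CPM against 6.89 to 29.5 CPM (2.60, SE 0.65, adjusted p = 0.714). DESeq2 called all of them but C3.

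Whether the response differed from that of neuronal nuclei was tested with the interaction over all 16 libraries. It called 0 of 18566 genes in edgeR (0%), with 1484 at an unadjusted p under 0.05 (7.99%), and 103 in DESeq2. The libraries were treated as independent. Whether neuronal and non-neuronal libraries of the same number came from the same mice was not examined. Cyp1a1 had 10, 28, 25 and 29 counts in neuronal agonist libraries 1 to 4 and 0 in each neuronal control, and its difference between populations had an SE too large to read (log2 2.23, SE 6.25). Serpina3n had 0, 49, 1 and 76 counts in neuronal agonist libraries and 11, 3, 5 and 6 in neuronal controls (difference 2.02, SE 1.32, adjusted p = 0.745). Tiparp differed by 1.21 in neuronal nuclei (SE 0.38, adjusted p = 0.903) and by 2.16 in non-neuronal nuclei, a difference of 0.91 (SE 0.65, adjusted p = 0.774). Ahrr had 216, 254, 215 and 228 counts in neuronal agonist libraries and 29, 30, 10 and 57 in neuronal controls (log2 difference 2.81, SE 0.51, adjusted p = 0.574), while in non-neuronal nuclei the groups overlapped; the difference between populations was -3.70 (SE 1.15, adjusted p = 0.432) and did not pass.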

How the data were processed

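RNA of sorted EGFP-negative colon nuclei was compared between 4 agonist and 4 corn oil libraries. Per the labels' protocols, nuclear RNA was amplified as cDNA (Ovation RNA-Seq System V2) and sequenced as single-end reads. The authors deposited RSEM expected counts for 51912 Ensembl genes, per the file headers. Per the submitters' processing notes, RSEM 1.3.0, STAR 2.5.2 and DESeq2 1.10.1 were used with GRCm38; annotation release and strandedness: not given in the sources used here, so antisense and near-identical genes cannot be told apart. The deposited column names also carry a project name about AhR knockout mice, unexplained in the sources used here, and groups were taken from the labels.

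Expected counts were rounded, genes filtered with filterByExpr (at least 10 counts, 15 in total), libraries scaled by TMM, and groups compared with edgeR 4.0.16 (quasi-likelihood, robust; R 4.3.3) with Benjamini-Hochberg adjustment over all genes at 0.05. Levels are TMM-scaled CPM (counts over scaled library size). Alternatives used DESeq2 1.42.0, limma 3.58.1 (voom), other filters and scalings, the mitochondrial share, and each library left out. The code was tested on simulated data. Symbols and positions come from GENCODE M21 (51633 identifiers matched) and promoters from RefSeq. Replicates of a group differed beyond sampling noise, by a chi-square of 34.6 to 181 per degree of freedom.

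The libraries, gene lists and genes were chosen with earlier results of these data known. Genes named are a fixed AhR set, the 2 called genes and up to 6 a direction with the smallest p, taken here with the same conditions as called genes (protein coding, mean of at least 50 counts, groups not overlapping), and called or, failing that, the 2 most abundant members of each list; other list members at an unadjusted p under 0.05 and the genes said to be so were named after their values were seen. With total counts of 2663738 to 4902303 a library, intervals on counts cover counting error only. A few genes that these rules name are not reported here.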

Additional observations from a re-analysis of the deposited data

Results flagged for a closer look

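In 174 groups of 4 values (the CPM of each named gene in each group, and 4 library measures), the highest or lowest library was checked for a gap to its nearest neighbour that was large against the group's range. Such a gap was found in 22 groups. How many chance alone would give was not tested, and the groups share the same libraries. Agonist library 1 was the highest for Nqo1 (39.3 CPM against 1.83 to 5.64, a gap of 0.898 of the range), Lypd8 (1869 CPM against 154 to 304, a gap of 0.912 of the range), Erbb3 (189 CPM against 44.6 to 64, a gap of 0.866 of the range), Fth1 (1314 CPM against 55.2 to 146, a gap of 0.928 of the range), Plac8 (260 CPM against 5.48 to 10.9, a gap of 0.979 of the range) and Cyp3a13 (688 CPM against 20.1 to 98.1, a gap of 0.883 of the range). Agonist library 2 was the highest for Slfn4 (134 CPM against 27.2 to 41, a gap of 0.872 of the range), Etv1 (333 CPM against 70.8 to 99, a gap of 0.893 of the range), Cdkn1a (118 CPM against 51.1 to 56.5, a gap of 0.92 of the range), Ptprc (506 CPM against 41.4 to 108, a gap of 0.858 of the range) and Thy1 (65.6 CPM against 1.62 to 7.97, a gap of 0.901 of the range). Agonist library 3 was the highest for Mrc1 (136 CPM against 45.1 to 55.1, a gap of 0.89 of the range). Agonist library 4 was the highest for Fabp4 (39.6 CPM against 2.3 to 8.19, a gap of 0.842 of the range). Control library 1 was the highest for Nr1d2 (94.9 CPM against 44.8 to 53.2, a gap of 0.834 of the range). Control library 2 was the highest for Krt7 (109 CPM against 3.47 to 17.2, a gap of 0.87 of the range). Control library 3 was the highest for Tnfaip3 (67.8 CPM against 6.07 to 13, a gap of 0.887 of the range), Cyp2c55 (569 CPM against 91.7 to 129, a gap of 0.923 of the range), Neb (424 CPM against 53 to 78.7, a gap of 0.931 of the range) and Cyp1a1 (0.246 CPM against 0, a gap of 1 of the range). Control library 4 was the highest for Myh11 (5742 CPM against 2199 to 2422, a gap of 0.937 of the range) and Tpm1 (3315 CPM against 1059 to 1197, a gap of 0.939 of the range). Control library 1 was the lowest for Hsp90ab1 (139 CPM against 194 to 203, a gap of 0.853 of the range).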

How the results depend on the processing

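The count of 2 genes higher and 0 lower was 18 and 17 with DESeq2, 0 and 0 with library sizes only (median of all genes -0.28 in place of 0.13), 65 and 23 with no filter on low counts, 0 and 0 among genes with a mean of at least 50 counts, 0 and 0 with limma voom, 1 and 0 without the 2 libraries over 30% mitochondrial counts, and 1 and 10 with all 16 libraries in 1 fit. It stayed 2 and 0 without the mitochondrial genes and with the mitochondrial share as covariate. Leaving out each library in turn gave 0 to 2 genes higher and 0 lower. These counts rest on different numbers of genes tested. The main fit tested 14846, the fit with no filter 39733 and that with a mean of at least 50 counts 8931. Without the 2 libraries over 30% mitochondrial counts 19254 were tested, and with all 16 libraries 18566. At an unadjusted p under 0.05 the split was 129 higher and 547 lower with library sizes only, and the cause was not tested. Both Cyp1a1 and Serpina3n stayed higher under every alternative run. The difference between populations called 110 genes with no filter, 103 with DESeq2, 7 without the 2 libraries over 30% mitochondrial counts and 0 to 9 with a library left out, the 9 without agonist library 3. The mitochondrial share term called 1 gene without the mitochondrial genes and 4 to 8 with a library left out, the 4 without agonist library 1 or 4. The mitochondrial share was 4.81 to 15.7 percentage points higher with the agonist when a library was left out.

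Replicate numbers did not pair agonist with control libraries of the non-neuronal nuclei. Libraries of the same number correlated at -0.036, 0.056, -0.13 and 0.039 in their deviations from group means. The control of the same number was the closest for agonist libraries 2 and 4, but not for 1 and 3. The replicate block gave 2 genes higher and 0 lower, with and without mitochondrial genes, and the block within population called 0 genes in the difference between populations.

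Among named genes that no fit called, 39 changed sign under at least 1 alternative, 128 times in all, and these log2 differences follow. With DESeq2 size factors and Wald test the values were Chgb 0.014. With library sizes only the values were Klf6 -0.10, Etv1 -0.20, Hsp90b1 -0.30, Crebbp -0.29, Hsp90ab1 -0.19, Dusp1 -0.040, Rps24 -0.32, Mrc1 -0.22, Hspa5 -0.33, Ifih1 -0.56, Postn -0.33, Clock -0.38, Abcc9 -0.014, Krt8 -0.30 and Malat1 -0.30. With no filter on low counts the values were Postn -0.0069. With a mean of at least 50 counts the values were Hsp90b1 -0.065, Postn -0.065 and Clock -0.018. With limma voom the values were Rps24 -0.14, Chgb 0.28 and Krt8 -0.21. With mitochondrial genes removed the values were Hsp90b1 -0.0061 and Postn -0.024. With the mitochondrial share as covariate the values were Nqo1 -0.58, Ptprb 0.040, Crebbp -0.051, Hsp90ab1 -0.032, Col3a1 0.021, Fn1 0.13, Rgs5 0.081, Ifih1 -0.23, Nfkb1 0.13, Snhg11 0.51 and Krt8 -0.55. Without the 2 libraries over 30% mitochondrial counts the values were Nqo1 -1.64, Etv1 -0.43, Lypd8 -0.68, Erbb3 -0.097, Ptprb 0.34, Crebbp -0.079, Hsp90ab1 -0.40, Rps24 -0.31, Col3a1 0.065, Fn1 0.18, Ptprc -0.71, Rgs5 0.068, Hspa5 -0.044, Ifih1 -0.50, Dclk1 0.22, Nfkb1 0.15, Errfi1 -0.065, Snhg11 0.38, Krt8 -1.55, Fabp4 0.36, mt-Rnr1 -0.0037 and Ceacam1 -0.029. With all 16 libraries in 1 fit the values were Hsp90b1 -0.024 and Postn -0.033. With the replicate block the values were Hsp90b1 -0.0078, Rps24 -0.036, Chgb 0.33 and Postn -0.027. With the replicate block and mitochondrial genes removed the values were Hsp90b1 -0.033, Rps24 -0.062, Chgb 0.31 and Postn -0.052. With a library left out the ranges were Abcc9 -0.14 to 1.13, Cd3e -1.88 to 0.099, Chgb -0.35 to 0.56, Clock -0.13 to 0.30, Col3a1 -0.66 to 0.18, Crebbp -0.056 to 0.27, Cyp2c55 -1.37 to 0.34, Errfi1 -0.19 to 0.84, Etv1 -0.46 to 0.67, Fabp4 -1.68 to 0.63, Fn1 -0.70 to 0.23, Hsp90ab1 -0.11 to 0.49, Hsp90b1 -0.23 to 0.19, Hspa5 -0.13 to 0.31, Ifih1 -0.54 to 0.84, Krt8 -0.70 to 0.75, Lypd8 -0.64 to 1.59, Malat1 -0.16 to 0.27, Mgst2 -1.20 to 0.029, Mrc1 -0.36 to 0.36, Myh11 -0.45 to 0.24, Nfkb1 -0.25 to 0.12, Nqo1 -0.94 to 2.07, Pclo -0.78 to 0.10, Postn -0.42 to 0.66, Ptprb -0.31 to 0.18, Ptprc -0.32 to 1.25, Rgs5 -0.39 to 0.75, Rps24 -0.069 to 0.38, Slfn4 -1.17 to 0.10, Snhg11 -0.67 to 0.21, Thy1 -2.51 to 0.73 and Zmat3 -0.96 to 0.10. Depth limits what low genes can show, such as Cyp1a2 with 0 and 1 counts, while Cyp1b1 was left out by the number of libraries the filter asks for.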
